A study of Homo sapiens with 30 samples.

Results

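The response of human embryonic stem cells to a day of Wnt3a was examined while the BET bromodomain proteins were inhibited throughout. Its members were the 4 RNA libraries of 24 h that had received CPI-203, out of 16 RNA libraries and 30 samples in all. RUES2, a single human embryonic stem cell line, had been kept in E7 medium with a ROCK inhibitor, which all groups share. The WNT_CPI group (2 libraries) received Wnt3a at 100 ng/mL and CPI-203, a small-molecule inhibitor of the BET proteins, at 1 µM. The E7_CPI group (2 deposited columns) received CPI-203 at the same dose in medium with no Wnt3a. CPI-203 is thus in both groups, and the comparison shows what Wnt3a added in its presence. For the difference made by the inhibitor, the pair without it was set beside these: WNT (Wnt3a alone, 2 libraries) and E7 (medium alone, 2 libraries). Nothing in the labels says that replicates were separate cultures, so the p-values cover the spread among the sequenced samples, which may be technical.

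In the canonical Wnt pathway, a secreted Wnt ligand binds a Frizzled receptor and an LRP co-receptor and stops the destruction complex of AXIN, APC and GSK3 from marking beta-catenin for breakdown. Beta-catenin then enters the nucleus, joins the TCF and LEF proteins on DNA and switches on targets, many of which are inhibitors of the pathway itself. In pluripotent cells the pathway opens the way to the primitive streak, the source of mesoderm and endoderm. BET proteins read acetylated histones and help RNA polymerase II to leave the promoter, so their inhibition is commonly used to ask which transcriptional responses need them.

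The WNT_CPI libraries held 41227705 and 43347733 counts, and the E7_CPI columns 38118391 and 37436571. As deposited, the E7_CPI replicate 1 column did not follow the genes of its table, and its highest absolute Spearman correlation with any library was 0.00712. When its values were laid against the gene IDs of replicate 2, the correlations with the other libraries were 0.954 to 0.986. Read in that way, the E7_CPI columns were far closer to each other than any other pair of replicates: their mean chi-square per gene was 3.25, against 120 between the WNT_CPI libraries and 96.9 to 164 within the other groups. They still differed by more than sampling noise, for which the mean would be about 1. The E7_CPI columns were therefore averaged and counted as 1 library, which has no spread of its own and was assumed to vary like the other groups. On the axis that separates the replicate numbers in the other groups, both E7_CPI columns lay on the side of replicate 2 (correlations -0.266 and -0.245).

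Markers of embryonic stem cells were mostly present. LIN28A, an RNA-binding protein of stem cells, stood at 1629 and 1943 CPM (counts relative to each library's TMM-scaled total, as edgeR computes them) in WNT_CPI, against 1828 and 1916 CPM in E7_CPI. POU5F1, the core pluripotency factor OCT4, stood at 237 and 289 CPM in WNT_CPI and 284 and 265 CPM in E7_CPI, and SOX2 at 276 and 323 CPM in WNT_CPI and 407 and 419.9 CPM in E7_CPI. NANOG was low on both sides, at 1.22 and 1.31 CPM in WNT_CPI and 0.934 and 0.809 CPM in E7_CPI. Over 27 pluripotency genes the summed level was 7534 and 8607 CPM in WNT_CPI, against 9669.9 and 9993 CPM in E7_CPI. Their log2 fold changes ran from -3.31 to 0.52, with a median of -0.21. Both WNT_CPI libraries lay below both E7_CPI columns in 13 of the 27 (25.9% of all genes) and above them in 2 (21.5%). Of 14 trophoblast and amnion markers 8 were high enough to be tested, and their summed level was 11.1 and 12.8 CPM in WNT_CPI, against 11.6 and 10.2 CPM in E7_CPI. Of 10 fibroblast markers 6 were tested, and COL3A1, DCN, FAP and LUM were too low. The summed level of the 6 was 382 and 494 CPM in WNT_CPI and 692 and 698 CPM in E7_CPI, mostly from COL1A1 and from THY1, which human embryonic stem cells are known to express. The part of that difference in the results was not tested. Of 626 genes on chromosome 22, 625 had no count in any library, so KREMEN1, ZNRF3 and WNT7B could not be examined.

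With CPI-203 on both sides, Wnt3a still raised a small group of genes, 5 of them from the Wnt pathway lists. Those lists were chosen with earlier results of these data known, and SP5, SP8, WLS and AXIN2 were named with the comparison. The count of 5 is thus a description and not a test of enrichment. At an adjusted p under 0.05, 13 of 17791 genes tested were called, all higher in WNT_CPI and none lower (0.0731% of genes in all, by edgeR's quasi-likelihood test with Benjamini-Hochberg adjustment). Their log2 fold changes ran from 1.52 to 9.22. They comprised the Sp-family factors SP5 and SP8, the feedback inhibitors AXIN2 and NKD1, the Wnt carrier WLS, cyclin D1 (CCND1), follistatin (FST), and SALL3, DSP, AJAP1, ERICH2, TNFRSF11B and ANP32A. In all 13, both WNT_CPI libraries lay above both E7_CPI columns, which was also true of 21.5% of all genes tested. Before adjustment, 488 genes had a p under 0.05, 244 higher and 244 lower. That is a smaller share of the 17791 than this threshold would give with no change at all. The fit did not pair the replicates, and lower genes were called once the replicate number was a block (below). DESeq2 called 61 higher and 12 lower.

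**Figure D1:**
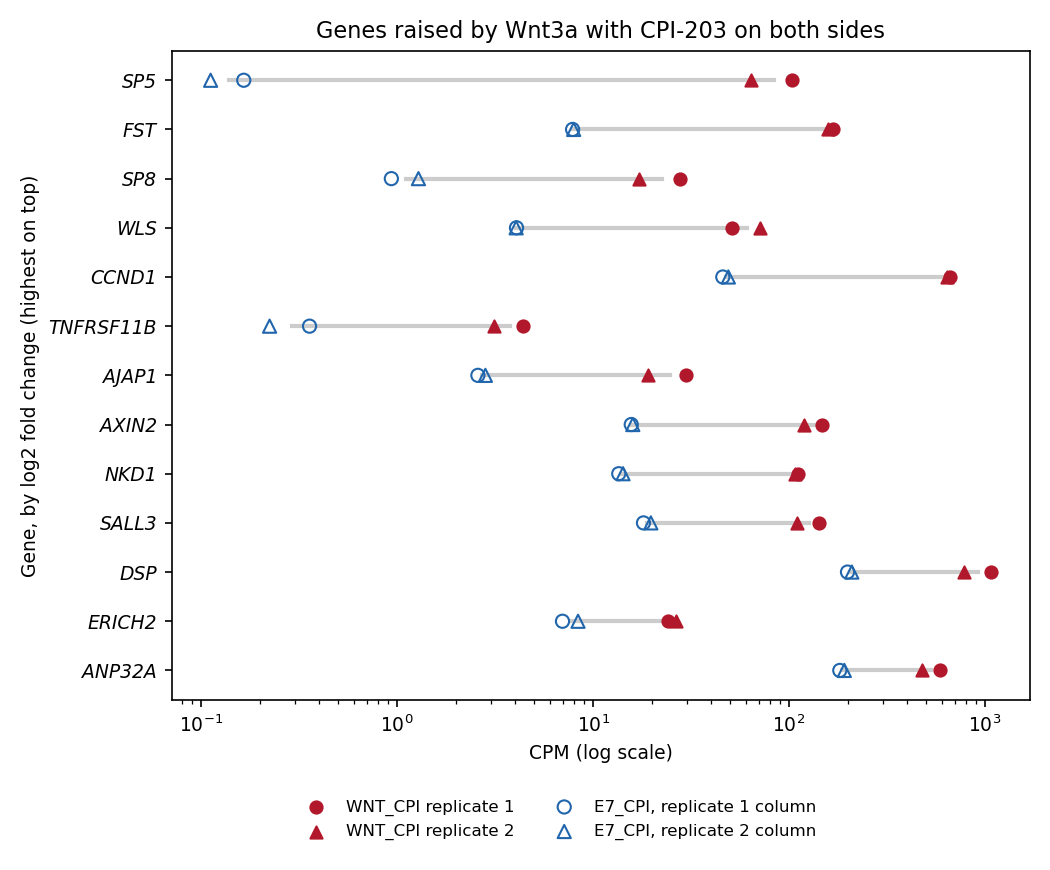
Levels of the 13 genes called higher in WNT_CPI, in CPM on a log axis, with 1 point per WNT_CPI library and per E7_CPI column and a grey line between the group means. In each gene both WNT_CPI points lie to the right of both E7_CPI points, and the distance is widest for SP5.

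With the replicate number as a block, and E7_CPI represented by its replicate 2 column, 95 genes were called (0.534%), 72 higher (0.405%) and 23 lower (0.129%), the 13 among them. The block is given because deviations from the group mean went together between same-numbered libraries (correlation 0.514 to 0.919 in all 21 pairs of groups). E7_CPI lay on the side of replicate 2, and WNT_CPI held both replicate numbers. Without the block, log2 fold changes against E7_CPI, and differences built on them, can thus hold part of the replicate difference. With the block that of SP8 was 3.88, against 4.34 without it, and that of CCND1 was 3.87, against 3.78. The number of calls also rested on single libraries. Without WNT_CPI replicate 1 it was 2, and the calls of all but NKD1 and WLS were lost (log2 fold changes of the 11 lost 1.35 to 8.83, adjusted p = 0.0520 to 0.183). Without E7 replicate 1 it was 5, and AJAP1, ANP32A, DSP, ERICH2, FST, SP5, SP8 and TNFRSF11B were lost (adjusted p = 0.0516 to 0.107). Without either WNT library it was 7, and 6 of those 8 were lost, with DSP and SP5 still called (adjusted p of the lost 0.0526 to 0.107). Without E7 replicate 2 the calls of ANP32A, ERICH2 and FST were lost (adjusted p = 0.0558 to 0.0981), and without WNT_CPI replicate 2 those of FST and ERICH2 (0.0862 and 0.0879). NKD1, WLS, CCND1, SALL3 and AXIN2 were called when any other library of 24 h or either E7_CPI column was left out. In the 24 h groups alone AJAP1, ANP32A, DSP, ERICH2, SALL3, SP8, TNFRSF11B and WLS were not called, and in the compared groups alone AJAP1, ANP32A, DSP, ERICH2 and TNFRSF11B were not.

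**Figure D2:**
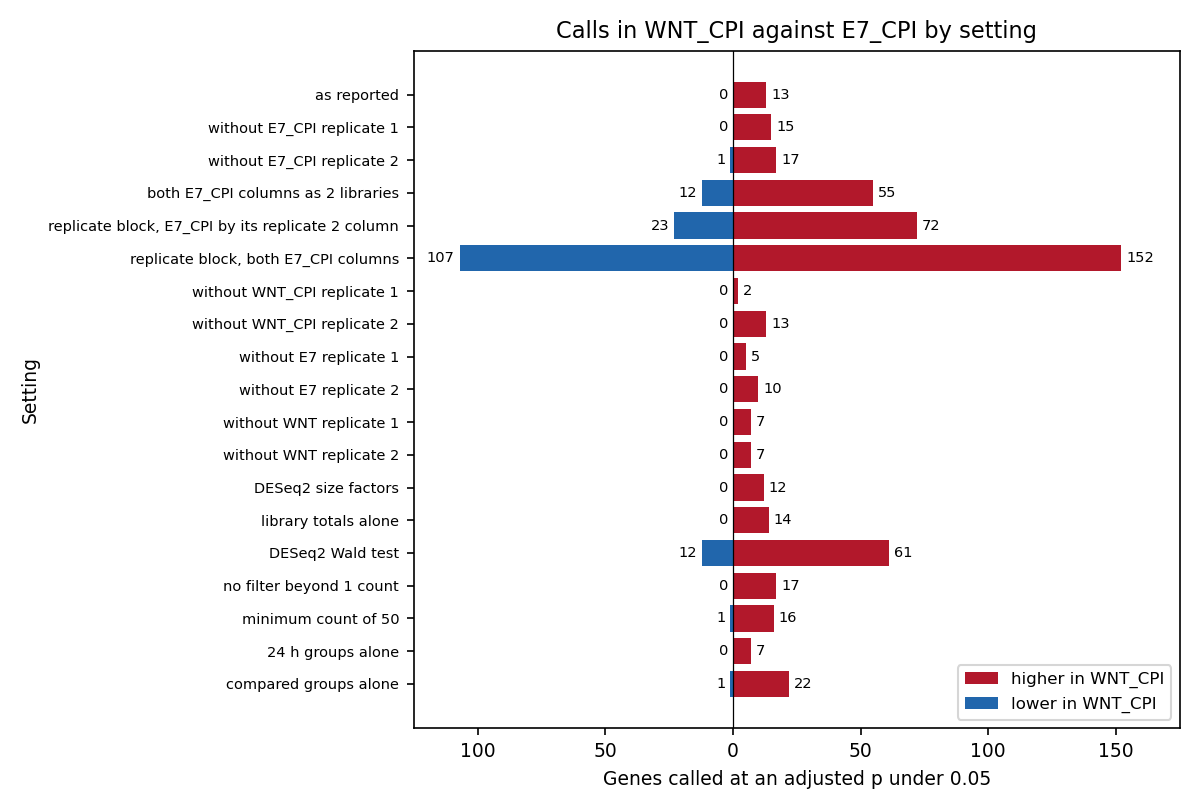
Number of genes called in WNT_CPI against E7_CPI under each setting, with genes higher in WNT_CPI as bars to the right and genes lower as bars to the left. Genes that were lower are called mainly where the replicate block is used, both E7_CPI columns count as separate libraries, or DESeq2 is used.

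SP5, a zinc-finger transcription factor switched on directly by beta-catenin, was nearly silent without Wnt3a. It stood at 104 and 64.2 CPM in WNT_CPI (4251 and 2638 counts), against 0.165 and 0.112 CPM in E7_CPI (6 and 4 counts). Both WNT_CPI libraries were far above the E7_CPI columns, with a log2 fold change of 9.22 ± 1.05 (SE; adjusted p = 0.0190). SP8, a relative of SP5 that also acts in posterior and limb patterning, stood at 27.7 and 17.1 CPM in WNT_CPI and 0.934 and 1.28 CPM in E7_CPI. Its log2 fold change was 4.34 ± 0.52 (adjusted p = 0.0194). Without WNT_CPI replicate 1 the log2 fold changes were 8.83 for SP5 and 3.95 for SP8.

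Among the called genes that could be searched, SP5 and SP8 were those whose proximal promoter held the letters CTTTGA on either strand. TCF and LEF proteins bind this core. Of the 13 called genes 9 had a promoter in the RefSeq table (GRCh38.p14, from 250 bases before to 50 bases after the annotated start). These 2 of the 9 genes held the core, and 12.9% of the 35116 promoters in that table did. The share counts promoters and not genes, and ERICH2 and WLS had several, so the figures are not like for like. The promoters of SP5 and SP8 are shown 5′ to 3′ on the strand of the gene, with the core in capitals (CTTTGA, or TCAAAG where it lies on the other strand). The promoter of SP5 (chr2:170715087-170715386, plus strand) held it 3 times, beginning 147, 109 and 83 bases before the start, and that of SP8 (chr7:20786837-20787136, minus strand) once, beginning 50 bases before it.
SP5: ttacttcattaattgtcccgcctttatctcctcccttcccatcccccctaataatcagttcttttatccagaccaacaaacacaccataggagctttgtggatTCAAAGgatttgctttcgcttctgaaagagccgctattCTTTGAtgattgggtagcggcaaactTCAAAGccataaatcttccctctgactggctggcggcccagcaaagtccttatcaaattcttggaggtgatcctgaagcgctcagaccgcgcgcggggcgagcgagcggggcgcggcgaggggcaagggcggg
SP8: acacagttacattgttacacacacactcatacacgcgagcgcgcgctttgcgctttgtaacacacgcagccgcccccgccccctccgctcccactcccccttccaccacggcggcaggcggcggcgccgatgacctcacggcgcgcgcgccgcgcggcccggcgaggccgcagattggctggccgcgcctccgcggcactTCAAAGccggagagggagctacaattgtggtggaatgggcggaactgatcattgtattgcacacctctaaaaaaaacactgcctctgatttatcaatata
A match gives letters only, and binding was not measured in these libraries. In the promoters of the other 7 called genes, among them WLS and FST, the letters were not found in this window. AXIN2, NKD1, CCND1 and TNFRSF11B had no entry in the promoter table and were not searched. Of the Wnt list members called only with the block, 6 had a promoter there, and none held the core.

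Of the 14 transcription factors and co-factors of the pathway, all tested, SP5 and SP8 rose (0.0731% of all genes) and none fell. With the block LEF1, TCF7 and TLE3 rose as well (0.405% of all genes). The list's median log2 fold change was -0.01, against -0.00052 for all genes tested. LEF1, a DNA partner of beta-catenin and itself a target, stood at 67.1 and 43.2 CPM in WNT_CPI, against 3.32 and 3.49 CPM in E7_CPI, a log2 fold change of 4.02 ± 0.80. Its adjusted p was 0.226, 0.00751 with the block and 6.78e-07 to 0.838 over all alternatives. TCF7, another partner of beta-catenin, stood at 47.4 and 43.5 CPM in WNT_CPI and 7.44 and 7.0 CPM in E7_CPI (2.66 ± 0.38, adjusted p = 0.0505, 0.00171 with the block and 1.40e-09 to 0.195 over all alternatives). TLE3, a Groucho co-repressor that TCF proteins recruit, stood at 159 and 154 CPM in WNT_CPI and 64.7 and 65.6 CPM in E7_CPI. In these 3 genes too both WNT_CPI libraries lay above both E7_CPI columns, as in 21.5% of all genes tested. TCF7L1, the factor that represses Wnt targets in stem cells, stood at 43.4 and 61.6 CPM in WNT_CPI, against 81.6 and 88.9 CPM in E7_CPI, and was not called under either fit.

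**Figure D3:**
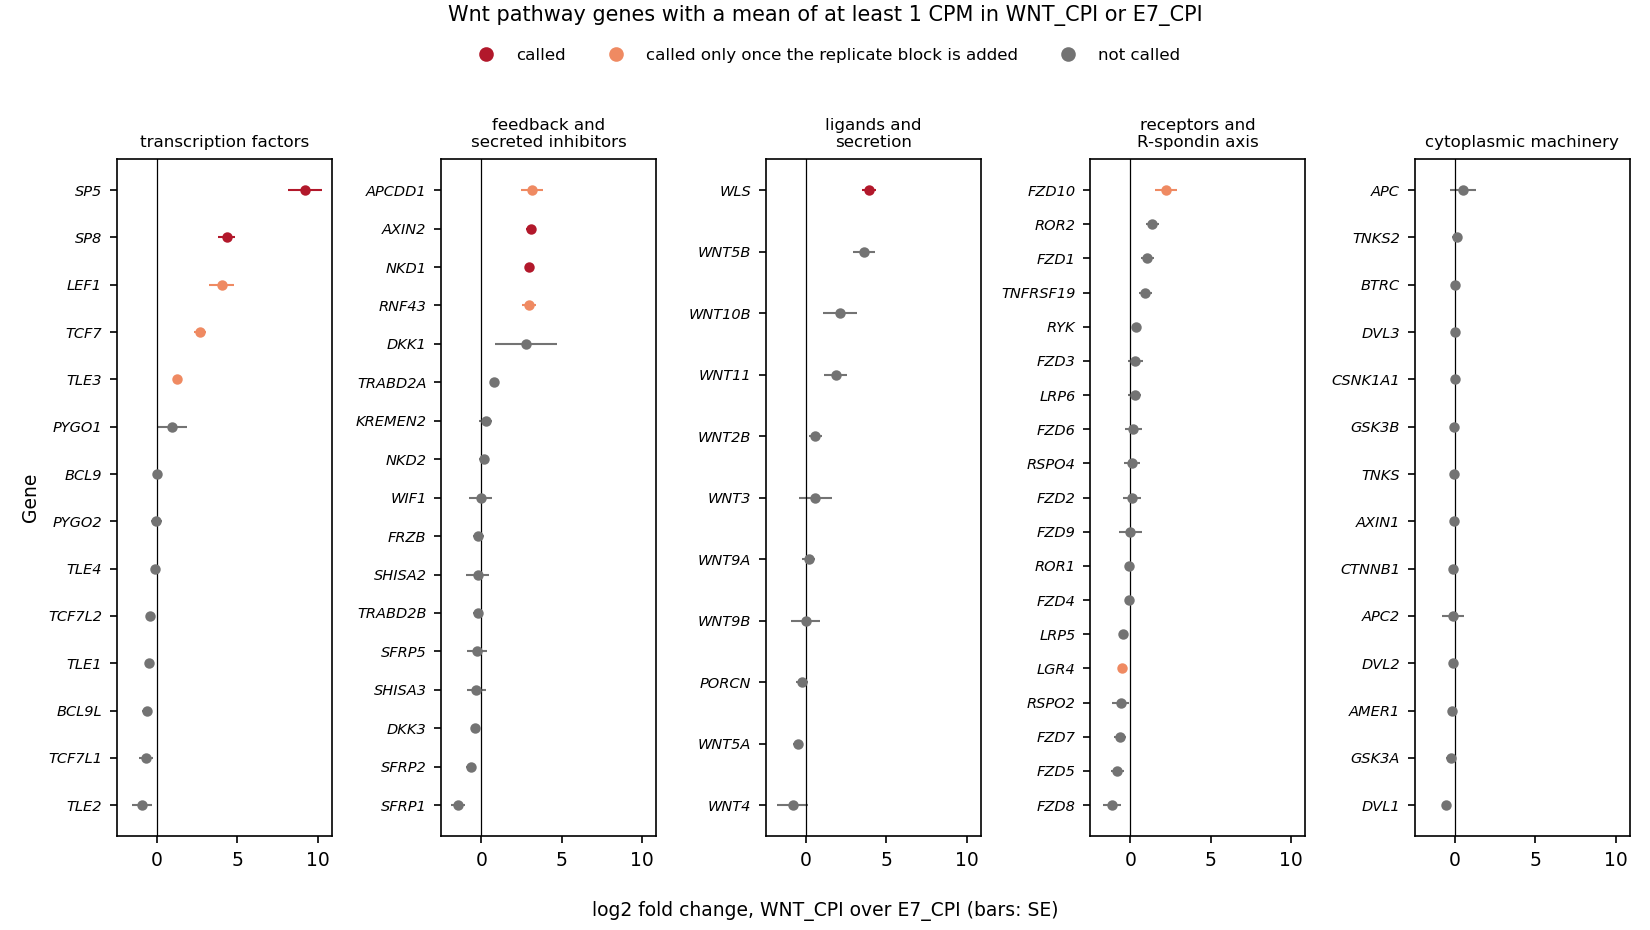
Log2 fold change of WNT_CPI over E7_CPI, with its standard error as a bar, for the genes of 5 Wnt pathway lists with a mean of at least 1 CPM in either group. Called genes are dark red and genes called only once the replicate block is added are orange. The cytoplasmic machinery lies near 0, and the transcription factors and feedback inhibitors each hold a few genes far to the right.

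Of the 23 feedback and secreted inhibitors, 20 were tested. AXIN2 and NKD1 rose (0.0731% of all genes), none fell, and RNF43 and APCDD1 rose with the block (0.405% of all genes). NKD1, which binds Dishevelled and dampens the signal, stood at 111 and 108 CPM in WNT_CPI, against 13.5 and 14.2 CPM in E7_CPI. That is 8.02 and 7.76 times the E7_CPI mean in the WNT_CPI libraries, with a log2 fold change of 2.99 ± 0.25 (adjusted p = 0.00626), the lowest adjusted p of the comparison. AXIN2, a scaffold of the destruction complex and the standard readout of the pathway, stood at 147 and 119.7 CPM in WNT_CPI and 15.7 and 15.9 CPM in E7_CPI (3.08 ± 0.32, adjusted p = 0.0101). Its groups were far apart, and the E7_CPI columns lay close to each other. RNF43, a ubiquitin ligase that clears Frizzled from the cell surface, stood at 8.60 and 7.45 CPM in WNT_CPI, against 1.13 and 0.921 CPM in E7_CPI (adjusted p = 0.0527, 0.00733 with the block and 3.62e-08 to 0.237 over all alternatives). APCDD1, a membrane inhibitor of the pathway, stood at 17.2 and 15.5 CPM in WNT_CPI and 1.95 and 1.76 CPM in E7_CPI.

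Other members of that list did not pass. SFRP1, a secreted protein that binds Wnt ligands, lay lower in both WNT_CPI libraries, at 207 and 211 CPM, against 588 and 576 CPM in E7_CPI, but its log2 fold change of -1.47 ± 0.42 was not called (adjusted p = 0.860, 0.0473 to 1 over all alternatives). DKK1, an LRP antagonist, stood at 2.81 and 2.41 CPM in WNT_CPI and 0.137 and 0.614 CPM in E7_CPI, and NOTUM, which inactivates Wnt ligands, at 0.782 and 0.487 CPM in WNT_CPI and 0.192 and 0.167 CPM in E7_CPI. Neither was called with or without the block.

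Among ligands and their export, WLS was the gene that rose, of 16 tested out of 21 (0.0731% of all genes). WLS, the carrier that takes Wnt proteins to the cell surface, stood at 51.4 and 71.2 CPM in WNT_CPI, against 4.06 and 4.05 CPM in E7_CPI (3.92 ± 0.41, adjusted p = 0.0101). WLS and ERICH2 were the called genes that stood higher in WNT_CPI replicate 2 than in replicate 1. WNT5B, a ligand known mostly for signalling outside the beta-catenin branch, stood at 13.2 and 8.40 CPM in WNT_CPI and 0.989 and 0.809 CPM in E7_CPI and was not called (3.61 ± 0.68, adjusted p = 0.178, 2.42e-06 to 0.679 over all alternatives). WNT6 had no count in either E7_CPI column and stood at 0.293 and 0.292 CPM in WNT_CPI, at least 3.52-fold higher against a floor of 3 counts in the mean E7_CPI library. It was not called.

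None of the 23 receptor and R-spondin genes was called (0.0731% of all genes). With the block FZD10 rose (0.405% of all genes) and LGR4 fell (0.129%). FZD10, a Frizzled receptor, stood at 22.8 and 17.6 CPM in WNT_CPI, against 4.42 and 4.35 CPM in E7_CPI (block log2 fold change 1.84). LGR4, a receptor for R-spondins, stood at 108 and 108 CPM in WNT_CPI and 151 and 160.4 CPM in E7_CPI (block log2 fold change -0.63). None of the 14 genes of the cytoplasmic machinery was called under either fit (0.0731% of all genes without the block, 0.534% with it). Their median log2 fold change was -0.06. CTNNB1, which encodes beta-catenin, stood at 894 and 1049.7 CPM in WNT_CPI and 1035 and 1054 CPM in E7_CPI.

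The called genes outside the Wnt lists were led by cyclin D1 and follistatin. CCND1, the CDK4 and CDK6 partner that drives entry into S phase, stood at 662 and 638 CPM in WNT_CPI, against 45.9 and 49.0 CPM in E7_CPI (3.78 ± 0.38, adjusted p = 0.0101). None of the other 18 cell-cycle genes tested was called (0.0731% of all genes were). CCND2 stood at 26.5 and 23.4 CPM in WNT_CPI and 32.4 and 32.8 CPM in E7_CPI. FST, a secreted protein that binds and blocks activins, stood at 167 and 159 CPM in WNT_CPI, against 7.85 and 7.95 CPM in E7_CPI (4.37 ± 0.58, adjusted p = 0.0340). It was the only gene called among 19 tested of the Nodal and Activin pathway (0.0731% of all genes). NODAL stood at 5.55 and 5.75 CPM in WNT_CPI and 1.15 and 1.03 CPM in E7_CPI and was not called.

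SALL3, a spalt-family zinc-finger factor, stood at 143 and 110.1 CPM in WNT_CPI and 18.1 and 19.7 CPM in E7_CPI (2.75 ± 0.28, adjusted p = 0.0101). DSP encodes desmoplakin, which ties desmosomes to keratin filaments, and stood at 1069 and 781 CPM in WNT_CPI, against 199 and 209 CPM in E7_CPI (2.19 ± 0.26, adjusted p = 0.0190). AJAP1, a membrane protein of adherens junctions, stood at 30.0 and 19.1 CPM in WNT_CPI and 2.58 and 2.82 CPM in E7_CPI (3.18 ± 0.37, adjusted p = 0.0190). In all 3 the libraries of WNT_CPI stood well clear of the E7_CPI columns.

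TNFRSF11B, the decoy receptor osteoprotegerin, stood at 4.37 and 3.12 CPM in WNT_CPI, against 0.357 and 0.223 CPM in E7_CPI (3.75 ± 0.46, adjusted p = 0.0209). ERICH2 stood at 24.1 and 26.4 CPM in WNT_CPI and 6.97 and 8.37 CPM in E7_CPI (1.73 ± 0.21, adjusted p = 0.0194). ANP32A, a nuclear acidic protein that can inhibit histone acetylation, stood at 589 and 475 CPM in WNT_CPI, against 181 and 191 CPM in E7_CPI (1.52 ± 0.21, adjusted p = 0.0447). ANP32A has near-identical copies among which reads could be split, so its level is uncertain.

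No member of the posterior and HOX list or of the primitive streak list was called in the fit of all groups without the block. Several had high log2 fold changes with large errors, and some were called under other settings with no block, such as DESeq2. Of 25 posterior and HOX genes 15 were tested. Both WNT_CPI libraries lay above both E7_CPI columns in 12 of them (21.5% of all genes), and the median log2 fold change was 2.93, or 2.82 with genes at 0 in E7_CPI set to their bound. With the block CDX1, CDX2, EVX1 and FOXB1 were called, all higher (0.405% of all genes). FOXB1, a forkhead factor of the developing neural tube, stood at 232 and 159 CPM in WNT_CPI, against 2.50 and 2.65 CPM in E7_CPI (6.25 ± 0.95, adjusted p = 0.0637, 1.77e-04 with the block and 1.60e-16 to 0.232 over all alternatives). CDX2, a homeobox factor that activates HOX genes, stood at 45.9 and 13.3 CPM in WNT_CPI (1878 and 545 counts), against 0.0824 and 0.0558 CPM in E7_CPI (3 and 2 counts). In the averaged E7_CPI library, where the count of CDX2 was rounded down to 2, the ratio to the WNT_CPI mean was 534, with a 95% counting interval of 148 to 4409, so its size is poorly known. Within WNT_CPI, its libraries differed by more than those of any called gene.

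EVX1, a homeobox factor of the posterior streak, had no count in either E7_CPI column and stood at 72.0 and 27.0 CPM in WNT_CPI, at least 596-fold higher against a floor of 3 counts in the mean E7_CPI library. CDX1 stood at 5.18 and 3.41 CPM in WNT_CPI and 0.165 and 0.140 CPM in E7_CPI. HOXA13, the most distal HOX gene of its cluster, was called with the block and stood at 11.9 and 7.94 CPM in WNT_CPI, against 0.0824 and 0.140 CPM in E7_CPI. GBX2, a hindbrain and posterior factor, stood at 139 and 110.4 CPM in WNT_CPI and 17.6 and 17.8 CPM in E7_CPI (adjusted p = 0.807, 0.00884 to 1 over all alternatives). In WNT libraries, with no inhibitor, HOXA13 stood at 0.0469 and 0.0841 CPM, against 0 and 0.0239 CPM in E7 libraries. The difference of HOXA13 between the responses was not called (interaction 4.29 ± 2.06, adjusted p = 1, 1 with the block and 0.608 to 1 over all alternatives).

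Of 24 primitive streak and early mesoderm genes 22 were tested. CDX1, CDX2 and EVX1 were again those called with the block (0.405% of all genes were called higher). Both WNT_CPI libraries lay above both E7_CPI columns in 13 of the 22 (21.5% of all genes) and below them in 5 (25.9%), and the median log2 fold change was 1.16. EOMES, a T-box factor of the streak, stood at 39.6 and 30.6 CPM in WNT_CPI and 1.92 and 1.70 CPM in E7_CPI (4.27 ± 1.52, adjusted p = 1, 0.00311 to 1 over all alternatives). TBXT (brachyury) stood at 1.29 and 0.901 CPM in WNT_CPI and 0.0275 and 0.0279 CPM in E7_CPI, where it had 1 count in each column. None of the 14 endoderm and anterior streak genes was called under either fit (0.0731% of all genes without the block, 0.534% with it). SOX17 stood at 0.0244 and 0.0730 CPM in WNT_CPI and 0.0275 and 0.0279 CPM in E7_CPI, at or under the floor of 3 counts.

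Among genes outside the lists, GAD1, which makes the transmitter GABA, had the lowest adjusted p with the block. GAD1 stood at 97.0 and 43.4 CPM in WNT_CPI, against 1.54 and 0.949 CPM in E7_CPI (5.82 ± 1.05, adjusted p = 0.178, 5.51e-06 with the block and 1.60e-10 to 0.490 over all alternatives). NKX1-2, a homeobox factor of the caudal epiblast, stood at 83.8 and 72.4 CPM in WNT_CPI and 11.0 and 10.9 CPM in E7_CPI and was called with the block too.

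Without the block no lower gene was called in the fit of all groups, and 23 were with it. The 23 had block log2 fold changes from -1.90 to -0.62, smaller in size than those of the leading genes that rose. CHAC1, a glutathione-degrading enzyme induced by stress, had the lowest. KSR1, a scaffold of the MAP kinase cascade, stood at 107 and 119 CPM in WNT_CPI, against 245 and 236 CPM in E7_CPI, and had the lowest adjusted p of the lower genes without the block (-1.09 ± 0.16, adjusted p = 0.0527, 0.00390 with the block and 1.04e-06 to 0.847 over all alternatives). DPPA4, a nuclear protein of pluripotent cells, stood at 117 and 141 CPM in WNT_CPI and 239.7 and 259.9 CPM in E7_CPI (block log2 fold change -0.96). It was the 1 called with the block among 27 pluripotency genes, all tested (0.129% of all genes were called lower). KRT18, a keratin of simple epithelia, stood at 164 and 187 CPM in WNT_CPI and 359 and 353 CPM in E7_CPI. It was the 1 called with the block among 15 epithelial genes (0.129% of all genes). Of these 15, 12 lay lower in both WNT_CPI libraries (25.9% of all genes). BMP7 stood at 1.56 and 3.46 CPM in WNT_CPI and 9.17 and 9.24 CPM in E7_CPI. It was the 1 called with the block among 19 genes of the BMP pathway (0.129% of all genes).

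Several other lists held no call under either fit: 18 FGF and MAPK feedback genes, 15 of neuroectoderm, 14 BET and P-TEFb genes, 16 immediate early genes and 16 p53 targets. Over all genes tested 0.0731% were called without the block and 0.534% with it, so most lists of this size would hold none. Likewise none was called of the 12 genes tested that BET inhibition is known to raise in other cells, or of the 9 tested that it is known to lower. HEXIM1, a P-TEFb inhibitor used as a marker of BET inhibition, stood at 294 and 309.6 CPM in WNT_CPI and 277 and 283 CPM in E7_CPI, against 69.7 and 85.4 CPM in WNT and 73.1 and 87.6 CPM in E7. All 4 values with the inhibitor lay above all 4 without it. The 12 genes raised elsewhere summed to 1016 and 1002.5 CPM in E7_CPI, against 599 CPM in the lower E7 library. The 9 genes lowered elsewhere summed to 490.6 and 490.9 CPM in E7_CPI, against 215 CPM in the lower E7 library. Both sums were set beside the lower E7 library alone, and the higher one was not summed, so they give no direction for either list. The effect of the inhibitor on these genes was not tested. Among 14 genes of mesenchymal transition, MMP2, a matrix metalloprotease, was called higher with the block (0.405% of all genes). It stood at 85.7 and 78.1 CPM in WNT_CPI and 48.9 and 48.1 CPM in E7_CPI.

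The response with CPI-203 was then set beside the response without it. In WNT against E7, 76 genes were called, 65 higher (0.365%) and 11 lower (0.0618%). The 9 genes called in both are 69.2% of the 13 and 11.8% of the 76. Of the 65 genes higher in WNT than in E7, 62 had a positive log2 fold change in WNT_CPI over E7_CPI. With the block, 414 genes (2.33%) were called in WNT against E7, 259 higher (1.46%) and 155 lower (0.871%), and the 55 called in both are 57.9% of the 95 and 13.3% of the 414. The E7_CPI group was 1 library in effect and E7 was 2, so the counts of calls do not have the same precision.

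**Figure D4:**
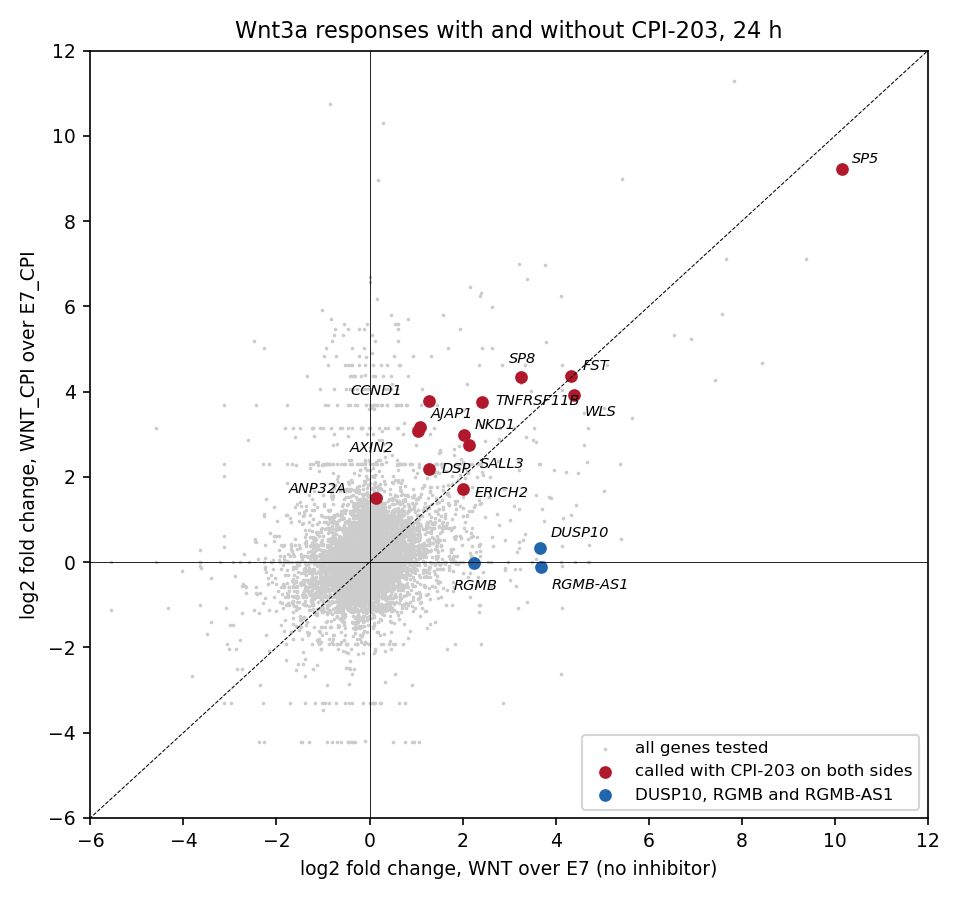
Log2 fold change of WNT_CPI over E7_CPI against that of WNT over E7, for all genes tested (grey, 3 lie outside the axes), with the 13 called genes in red and DUSP10, RGMB and RGMB-AS1 in blue. The red points were chosen by the value on the vertical axis, and the dashed line marks equal responses. The blue points lie near 0 on the vertical axis at positive values on the horizontal one.

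The test of the difference is the interaction, the log2 fold change of WNT_CPI over E7_CPI minus that of WNT over E7. It called 1 gene (0.00562%), DUSP10, and none of the 13 passed it. With the block 7 were called (0.0393%), 2 with a larger (0.0112%) and 5 with a smaller response under CPI-203 (0.0281%). DUSP10, a phosphatase that switches off the p38 and JNK kinases, stood at 3.10 and 4.36 CPM in WNT_CPI and 3.05 and 2.87 CPM in E7_CPI, against 8.57 and 8.46 CPM in WNT and 0.738 and 0.597 CPM in E7. It rose with Wnt3a alone by 3.67 on the log2 scale (adjusted p = 6.09e-04) and had a log2 fold change of 0.34 ± 0.26 under CPI-203. The interaction was -3.33 ± 0.33 (adjusted p = 0.0350, 1.96e-12 to 0.862 over all alternatives). The inhibitor groups overlapped neither WNT nor E7, lying above E7 and below WNT. Without any 1 of the WNT_CPI, E7 or WNT libraries no gene passed the interaction.

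RGMB, a co-receptor for BMP ligands, and RGMB-AS1 beside it rose with Wnt3a alone and were not called under CPI-203, and both passed the interaction once the block was added. RGMB stood at 30.7 and 39.2 CPM in WNT_CPI and 35.2 and 35.5 CPM in E7_CPI, against 109 and 111 CPM in WNT and 24.0 and 22.3 CPM in E7 (interaction -2.26 ± 0.35, adjusted p = 0.456, 0.00847 with the block and 1.10e-04 to 1 over all alternatives). RGMB-AS1 stood at 0.611 and 0.828 CPM in WNT_CPI and 0.796 and 0.754 CPM in E7_CPI, against 13.4 and 8.46 CPM in WNT and 0.857 and 0.836 CPM in E7 (interaction -3.79 ± 0.43, adjusted p = 0.0556, 0.0324 with the block and 1.25e-07 to 0.904 over all alternatives). RGMB-AS1 lies antisense to RGMB, and whether counting used strand is not stated, so their reads cannot be told apart. SLFN12 passed with the block as well, at 15.9 and 16.9 CPM in WNT_CPI and 30.7 and 32.9 CPM in E7_CPI, against 17.5 and 14.7 CPM in WNT and 8.07 and 7.19 CPM in E7.

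**Figure D5:**
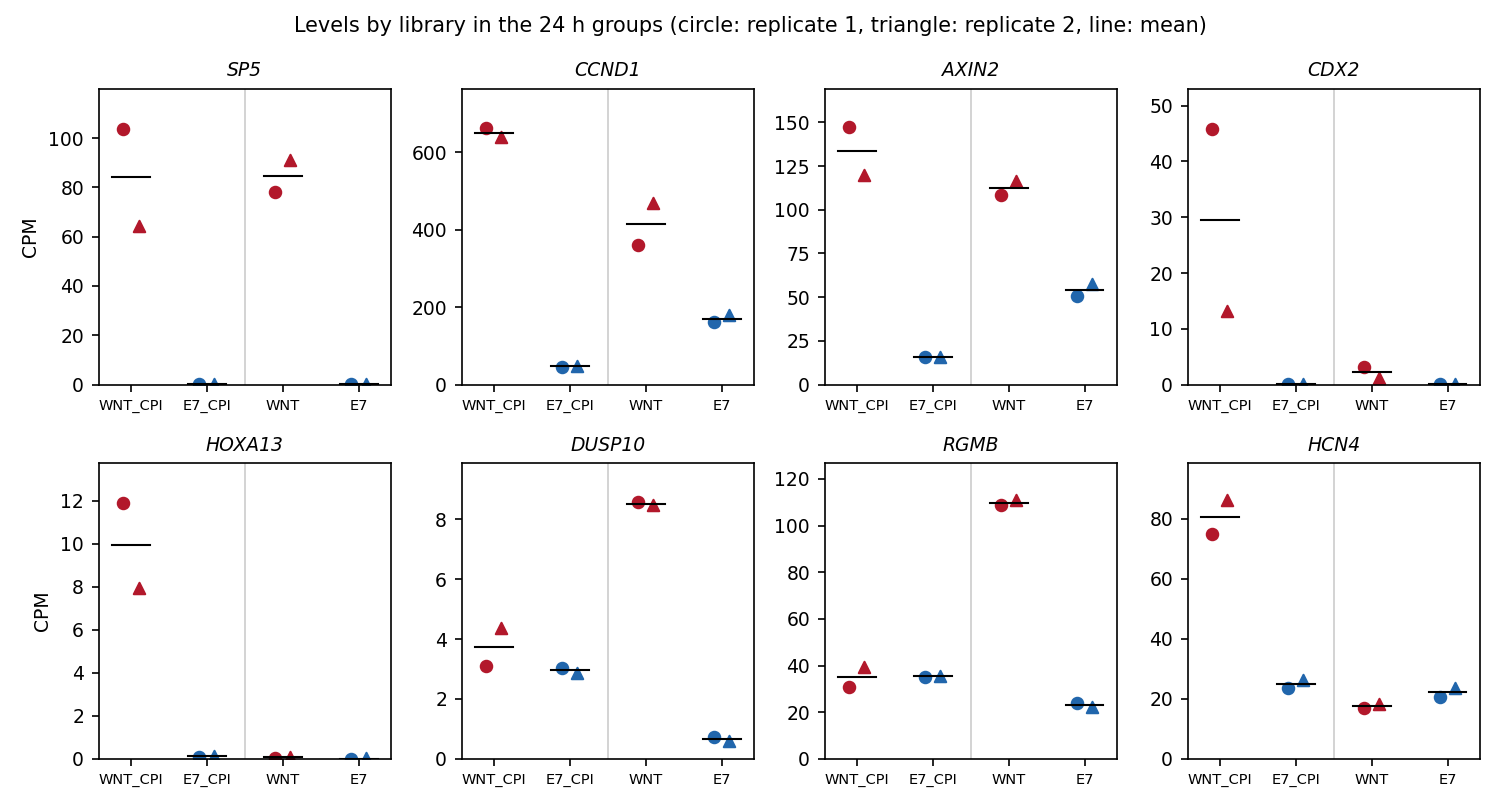
CPM by library in the 4 groups of 24 h for 8 genes, with WNT_CPI and E7_CPI to the left of WNT and E7 and a line at each mean. CCND1 and AXIN2 are lowest in E7_CPI, DUSP10 and RGMB are highest in WNT, and HOXA13 and HCN4 are highest in WNT_CPI, where the interaction of HOXA13 was not called.

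In CCND1 and HCN4 the response was larger under CPI-203 by the interaction with the block. CCND1 stood at 662 and 638 CPM in WNT_CPI and 45.9 and 49.0 CPM in E7_CPI, against 360.2 and 468 CPM in WNT and 160.3 and 181 CPM in E7 (interaction 2.50 ± 0.42, adjusted p = 0.566, 0.0101 with the block and 1.10e-04 to 1 over all alternatives). The CCND1 level was thus highest in WNT_CPI and lowest in E7_CPI, and no library of one group overlapped those of another. HCN4, a pacemaker ion channel, stood at 75.0 and 86.2 CPM in WNT_CPI and 23.6 and 26.3 CPM in E7_CPI, against 16.9 and 18.2 CPM in WNT and 20.8 and 23.6 CPM in E7.

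AXIN2 had a like order of groups but did not pass. It stood at 147 and 119.7 CPM in WNT_CPI and 15.7 and 15.9 CPM in E7_CPI, against 108 and 117 CPM in WNT and 50.9 and 57.6 CPM in E7, an interaction of 2.03 ± 0.36 (adjusted p = 0.600, 9.27e-04 to 1 over all alternatives). AJAP1 stood at 18.9 and 19.6 CPM in WNT and 9.76 and 8.32 CPM in E7, with an interaction of 2.09 ± 0.43 (adjusted p = 1, 0.00840 to 1 over all alternatives). ANP32A stood at 334 and 353 CPM in WNT and 306 and 318 CPM in E7, with an interaction of 1.38 ± 0.26 (adjusted p = 0.700, 0.00237 to 1 over all alternatives).

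For SP5, WLS and FST no difference between the responses was detected. SP5 stood at 78.3 and 91.0 CPM in WNT and 0.0714 and 0.0717 CPM in E7, a log2 fold change of 10.15, against 9.22 under CPI-203 (interaction -0.93 ± 1.36). WLS stood at 16.3 and 16.6 CPM in WNT and 0.714 and 0.836 CPM in E7, with an interaction of -0.47 ± 0.44. FST stood at 266 and 248 CPM in WNT and 12.5 and 13.1 CPM in E7, with an interaction of 0.05 ± 0.59. All 3 interactions were about the size of their standard error or smaller, which does not show that the responses were equal. These errors are from the fit without the block, and none of the 3 passed the interaction with it either.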

How the data were processed

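The authors deposited raw gene counts per library, 1 table per replicate number with Entrez IDs, per the file headers. Tools named in the submitters' processing notes are Bowtie2, deepTools, DESeq2, featureCounts and MACS2. The RNA aligner, genome build and strand setting are not given in the sources used here. A list of ATAC peak positions with no values per sample was not used here. The tables shared 27348 genes, and 27322 had a RefSeq symbol. The E7_CPI replicate 1 column, with 12 empty cells, was read against the gene IDs of replicate 2 and averaged with the replicate 2 column, rounded to whole counts.

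Counts of 15 libraries in 8 groups were fitted in 1 model with edgeR 4.0.16 (R 4.3.3): filterByExpr (minimum count 10), TMM factors of 0.945 to 1.047, and the 2-sided quasi-likelihood F-test with 7 residual degrees of freedom, adjusted by Benjamini-Hochberg over all genes tested. Errors are standard errors worked back from that test, as the absolute log2 fold change over the square root of F. Library totals ran from 36268324 to 43347733 counts, and counting intervals cover counting error only. Replicate numbers paired the samples by the correlation of their deviations, and edgeR's common coefficient of biological variation fell to 0.122 with the replicate block, against 0.290 with none. The E7_CPI columns have no separate replicate, so the block used the replicate 2 column. Other settings were DESeq2 1.42.0 and its size factors, library totals alone, other filters, fewer groups, and leaving out each 24 h library. The script of the fit was run on simulated counts with no replicate effect, which checks the code and not the calls made here.

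The comparison and the gene lists were chosen with earlier results of these data known. Named were SP5, SP8, WLS and AXIN2, the 12 called genes of largest log2 fold change in each direction with at least 1 CPM and no overlap between groups, called members of the lists, members of the 5 Wnt lists, and the genes of lowest adjusted p called in the interaction. ANP32A, the genes called with the block but not without it, and uncalled genes outside the Wnt lists were named after their values were seen.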

Additional observations from a re-analysis of the deposited data

Results flagged for a closer look

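The Wnt3a response of DUSP10 differed between cells with and without CPI-203 by the test of the difference itself. Its interaction log2 fold change was -3.33 ± 0.33 (SE; adjusted p = 0.0350 by edgeR's quasi-likelihood test, 1.96e-12 to 0.862 over all alternatives). DUSP10 stood at 3.10 and 4.36 CPM in WNT_CPI and 3.05 and 2.87 CPM in E7_CPI, against 8.57 and 8.46 CPM in WNT and 0.738 and 0.597 CPM in E7. Leaving out any 1 of the WNT_CPI, E7 or WNT libraries ended the call. No group held the 4 samples that a check for single outlying libraries needs.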

How the results depend on the processing

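In WNT_CPI against E7_CPI, 13 genes were called as reported. The count was 95 with the replicate block and E7_CPI by its replicate 2 column, 259 with the block and both E7_CPI columns, 67 with both columns as 2 libraries and no block, 73 by DESeq2, 7 in the 24 h groups alone and 23 in the compared groups alone (1 residual degree of freedom). It ran from 2 to 18 when 1 library was left out. For the interaction, called for 1 gene, these counts were 7, 22, 2, 15 and 0 in the same order up to the 24 h groups, 2 with a minimum count of 50, and 0 to 2 without 1 library. For WNT against E7, called for 76 genes, they were 414 and 299 with the block, 255 by DESeq2, 47 in the 24 h groups alone and 9 to 76 without 1 library. The fit with the block and both E7_CPI columns treats them as separate replicates, although both lay on the side of replicate 2.

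SP5, SP8, WLS and AXIN2 were higher in WNT_CPI under every setting run. In the 24 h groups alone WLS (3.94 on the log2 scale), SP8 (4.35) and 6 other called genes were no longer called, and in the compared groups alone 5 of the 13 were not. Without 1 library the log2 fold changes ran from 2.93 to 3.24 for AXIN2, 8.83 to 9.54 for SP5, and 3.95 to 4.66 for SP8. A change of sign came up in values near 0: RGMB in WNT_CPI over E7_CPI had 0.10 with the block and -0.18 to 0.15 without 1 library, RGMB-AS1 had -0.32 to 0.10 without 1 library, and the interaction of FST was -0.11 with the block. The cause was not tested. Of 35 other named genes not called as reported, 22 were called with the block and 26 with the block and both E7_CPI columns, the added 4 being WNT5B, GBX2, SFRP1 and EOMES. With no block, 19 of them were called by DESeq2, 16 with both columns as 2 libraries and 10 in the compared groups alone. The interaction of CCND1, AJAP1, ANP32A and AXIN2 was called by DESeq2 and with the block and both columns. Genes with few counts in E7_CPI, such as SP5 and CDX2, have a fold set by 2 to 6 counts.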
